A study of Rattus norvegicus with 18 samples.

Results

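In the left hippocampus of 18 rats, 1157 stretches of the genome, each 1000 bp long, had an intermediate level of DNA methylation in every animal. They were taken from 72912 autosomal tiles that held at least 8 measured cytosines, so 1.59% of those tiles are described here, and the table covered 194691 tiles in all. A tile was included when its mean level lay between 35 and 65% in each of the 18 rats and when at least 70% of its cytosines had an 18-rat mean between 30 and 70%. These intermediate tiles were thus chosen by their measured levels in all rats, so their levels are descriptions, and the band limits how far any group could move. Cytosine rows count each strand of a CpG separately.

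The assay was reduced representation bisulfite sequencing, which reads the CpG-rich fragments left by the enzyme MspI after bisulfite has turned unmethylated cytosines into uracil. The groups were 4 rats with 3 class V seizures in the kindling model, 4 kindling sham rats, 3 rats with 3 class V seizures in the kainic acid model and 7 kainic acid sham rats. Kindling applies electrical stimulation through electrodes in the hippocampus until seizures generalise, and the kainic acid model injects this glutamate receptor agonist until status epilepticus begins. All were adult Sprague-Dawley males, and the seizure rats' tissue was taken 24 hours after the last seizure. The sources used here do not say what the sham rats underwent. Each sample was 1 whole hippocampus with all its cell types. The values are methylation fractions with no read counts, so the depth behind them is unknown. The tissue label was not checked against cell markers, because the table holds no RNA levels and no methylation markers of cell types were used here.

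At most CpGs of a mammalian genome both parental copies carry the same state, and CpG islands at promoters are mostly unmethylated. Genomic imprinting is the exception: at an imprinting control region the copy from a single parent is methylated in all cells and the other copy is not, and the genes nearby are expressed from a single parental copy. Several imprinted genes act in the brain and in growth, among them Gnas, which encodes a G protein subunit that couples receptors to cAMP. In bulk tissue, an intermediate level can come from 1 methylated copy in every cell or from 2 methylated copies in part of the cells, and these cannot be told apart here.

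The files name no genes, and no annotation of their build, rn6, was used. Promoter sequences of RefSeq (GRCr8 assembly, 250 bases before to 50 after a gene's start) were therefore placed on the rn6 table by the spacing of their CpGs, and 7340 of 33469 promoters found exactly 1 place on their own chromosome. Such a window overlapped 6 of the 1157 intermediate tiles (0.519%), against 9.93% of the other 71755 tiles. The windows below, read 5′ to 3′, show what was measured: capitals mark CpGs with a methylation value, and the first 3 windows lie in intermediate tiles while the last lies beside them.
LOC102548488 (lncRNA inside the Gnas locus, chr3:172384510-172384809, minus strand): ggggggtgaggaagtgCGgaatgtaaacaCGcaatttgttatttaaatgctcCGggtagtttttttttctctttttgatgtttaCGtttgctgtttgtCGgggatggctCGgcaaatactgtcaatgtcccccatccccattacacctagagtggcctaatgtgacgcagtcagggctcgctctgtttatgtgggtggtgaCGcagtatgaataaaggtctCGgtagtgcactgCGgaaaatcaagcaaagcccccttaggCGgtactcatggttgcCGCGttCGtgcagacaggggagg
Plagl1 (chr1:7219337-7219636, plus strand): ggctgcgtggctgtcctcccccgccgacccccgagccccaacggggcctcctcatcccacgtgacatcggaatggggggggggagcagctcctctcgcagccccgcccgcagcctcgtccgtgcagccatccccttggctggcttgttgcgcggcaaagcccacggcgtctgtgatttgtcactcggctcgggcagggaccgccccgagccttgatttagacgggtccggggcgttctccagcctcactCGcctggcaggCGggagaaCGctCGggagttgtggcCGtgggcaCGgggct
LOC134479573 (lncRNA, chr7:141430690-141430989, plus strand): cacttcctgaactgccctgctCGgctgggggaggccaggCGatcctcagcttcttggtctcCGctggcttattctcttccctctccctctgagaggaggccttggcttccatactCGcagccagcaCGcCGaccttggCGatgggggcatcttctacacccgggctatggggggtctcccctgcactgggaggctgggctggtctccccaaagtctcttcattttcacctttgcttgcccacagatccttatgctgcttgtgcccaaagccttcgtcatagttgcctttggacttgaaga
Gnas, downstream promoter (chr3:172420094-172420393, plus strand): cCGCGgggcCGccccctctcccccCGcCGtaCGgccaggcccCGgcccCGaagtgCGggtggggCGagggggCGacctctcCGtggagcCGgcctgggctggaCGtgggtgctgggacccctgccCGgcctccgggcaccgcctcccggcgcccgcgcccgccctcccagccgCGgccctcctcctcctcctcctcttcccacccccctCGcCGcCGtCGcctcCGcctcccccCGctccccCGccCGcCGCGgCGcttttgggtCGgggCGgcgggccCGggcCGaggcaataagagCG
In the LOC102548488 window 13 CpGs matched and their mean level over the 18 rats was 49.7%. The Plagl1 window had 6 matched CpGs at 34.4%, all at its 3′ end. The LOC134479573 window had 7 matched CpGs at 55.9%. The downstream Gnas promoter had 32 matched CpGs at 13.1%, with rats between 12.2 and 14.3%. The hexamer TGCCGC, bound when methylated by the imprinting factor ZFP57 in mouse, was searched on both strands. It occurs in the LOC102548488 and Plagl1 windows and not in the letters of the other windows shown, and 11.7% of all promoters in the RefSeq table hold it. In the Plagl1 window the CpG of the hexamer had no methylation value. Placed windows not shown that also overlap intermediate tiles, those of Zfp541, Usp19 and the upstream Gnas promoter, do not hold it. Outside the intermediate tiles, the placed windows of Igf2 and Dlk1 hold it and those of Ndn and Zdbf2 do not.

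Intermediate tiles were mostly sparse in measured cytosines. Their median was 10 cytosine rows, with a range from 8 to 170, against a median of 13 rows over all tiles that could be chosen, and 324 had exactly 8 rows. Of the tiles with 8 to 11 rows, 2.33% were intermediate, and the share was lower in each denser class, at 0.256% of tiles with 40 to 79 rows and 7 of 4825 tiles with 80 rows or more (0.145%). The level of all tiles differs between these classes, with a median of 85.5% at 8 to 11 rows and 9.19% at 80 rows or more. Among tiles whose 18-rat mean lay in the band, 18.6% of the sparsest class and 25% of the densest class met the whole rule.

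**Figure D1:**
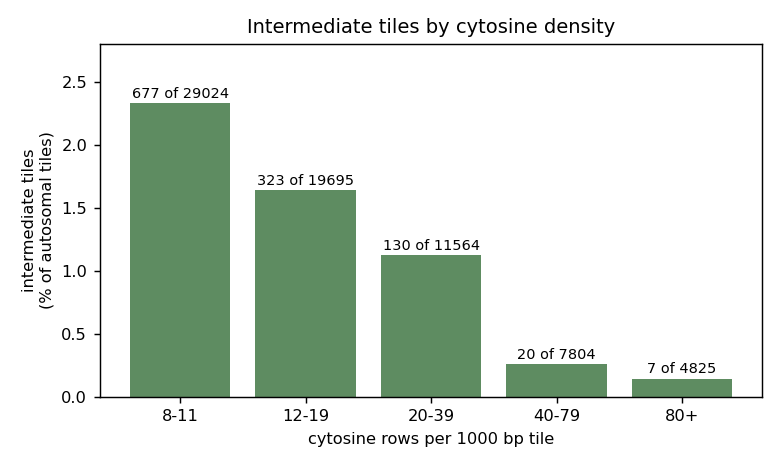
Share of autosomal tiles that are intermediate in all 18 rats (vertical axis, percent) by the number of cytosine rows per 1000 bp tile (horizontal axis); the counts stand above the bars. The share is 2.33% at 8 to 11 rows and 0.145% at 80 rows or more.

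Every autosome held intermediate tiles, from 1.08% of the tiles of chromosome 11 to 2.12% of those of chromosome 12. On the X chromosome, present in a single copy in males, 2 of 1249 tiles met the same levels (0.160%), and on the Y chromosome 0 of 442. The band itself was met by 4447 autosomal tiles in every rat, and 3290 of these were left out because too few of their cytosines lay between 30 and 70%. The mean level of the 1157 tiles had a median of 51.0%, with quartiles at 47.2 and 54.7%. The threshold cut a continuous range. Just inside the band lay chr5:62510001-62511000, whose lowest rat was at 35.0018%, and just outside it lay chr13:69636001-69637000, whose lowest rat was at 34.9855%.

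Most intermediate tiles stood alone. Runs of directly adjacent intermediate tiles numbered 13 and held 30 of the 1157 tiles: 11 runs of 2 tiles, 1 run of 3 and 1 run of 5. Few tiles had a measured neighbour, since only 295 of the 1157 had an adjacent tile with 8 rows or more. Of those 295, 30 had an intermediate neighbour (10.2%), against 321 of 27228 tiles (1.18%) when all tiles with such a neighbour are counted. Around the runs and the single tiles lay 495 other tiles with at least 3 rows, of which 34.1% had a mean of 80% or more, 22.4% lay between 35 and 65%, and 9.70% were under 20%. The 5 longest runs were chr3:172384001-172389000, chr14:92116001-92119000, chr3:172417001-172419000, chr3:172375001-172377000 and chr5:166903001-166905000.

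In the intervals of at most 1000 kb between placed promoters that hold Gnas, 9 of the 29 tiles able to be chosen were intermediate. Of the 5 longest runs, 3 lay along the Gnas locus. In mouse this locus has several imprinted promoters: an upstream one for Nesp, next to it one for the long form Gnasxl with an antisense RNA, a further control region just before the main Gnas exon, and the Gnas promoter itself, which is unmethylated. In the rat table, high, intermediate and low stretches alternated. Tiles at -13.2, -10.2 and -2.21 kb from the placed upstream promoter had levels of 94.2 to 99%. The tile over that promoter was at 23.9%, the next 2 were intermediate at 39.4 and 55.3%, and the run of 5 that begins 9.79 kb downstream had levels of 40.5 to 53.6%. Tiles at 29.8 and 35.8 kb returned to 91.1 and 99.02%. Intermediate levels of 55.9 and 44.4% came back at 42.8 and 43.8 kb, and the tile over the downstream promoter, 45.4 kb from the upstream one, was at 10.2%.

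**Figure D2:**
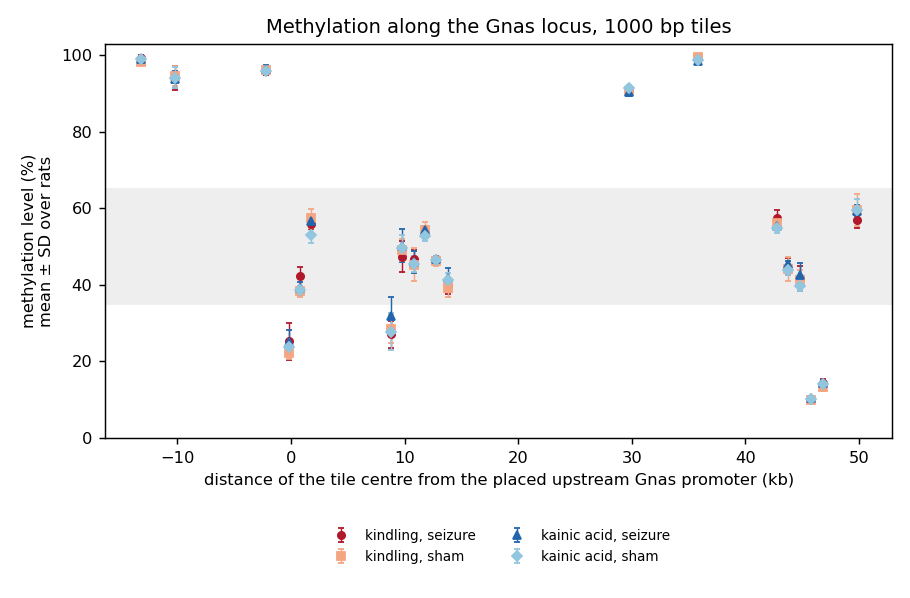
Methylation level (percent, mean with SD over the rats of each group) of every tile with at least 3 cytosine rows along the Gnas locus, against the distance in kb from the placed upstream Gnas promoter; the grey band is 35 to 65%. The means of the 4 groups lie close together at high, intermediate and low tiles, with the tile over the downstream promoter at 10.2%.

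The densest intermediate tile of the genome lay in the run of 5, at chr3:172387001-172388000, with 170 cytosine rows. Its levels were 46.6, 46.4, 47.4 and 46.8% in kindling seizure rats and 46.1, 44.4, 47.5 and 46.9% in kindling sham rats. In kainic acid seizure rats they were 46.6, 46.5 and 47.4%, and in the 7 kainic acid sham rats the lowest, median and highest were 44.5, 46.7 and 47.9%. This tile had the smallest spread of all intermediate tiles, 3.42 points between the highest and lowest rat, and the groups overlapped in both models. For that reason it fell under the 5-point minimum range and was not among the tiles tested.

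At the upstream end, chr3:172375001-172376000 with 83 rows was the intermediate Gnas tile with the greatest kindling difference. It had 45.7, 40.9, 42.1 and 40.3% in kindling seizure rats, against 37.7, 40.4, 37.3 and 38.0% in kindling sham rats. The lowest seizure rat lay just below the highest sham rat, so the groups overlapped. The difference was 3.89 ± 3.19 points (95% interval) and was not called (adjusted p = 0.845, limma over all tiles). In the kainic acid model the same tile had 38.4, 38.0 and 40.9% in seizure rats, against 37.3, 37.9 and 40.9% (lowest, median, highest) in sham rats, and the difference was 0.475 ± 3.12 points. Over the 8 tested Gnas tiles the differences ran between -1.84 and 3.89 points in kindling (5 positive, 3 negative) and between 0.440 and 3.68 points in the kainic acid model (8 positive, 0 negative). Of all tested tiles, 56.1 and 57.5% had a positive difference in these models. Seizure and sham rats did not overlap in 1 Gnas tile in the kainic acid model (1.49% of all tested tiles) and in 0 in kindling (2.44% of all tested tiles). Tiles of a locus share rats and are not independent.

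The second longest run, 3 tiles at chr14:92116001-92119000, had 104 cytosine rows in its middle tile. The nearest placed promoters are those of Fignl1 and Vstm2a, 7624 kb apart, and in GRCr8 that interval holds Grb10, an imprinted adaptor that restrains insulin receptor signalling, and its neighbour Ddc among many other genes. The middle tile had 46.7, 44.8, 46.9 and 46.6% in kindling seizure rats and 49.4, 45.9, 47.2 and 52.6% in kindling sham rats. In the kainic acid model it had 43.3, 49.2 and 50.6% in seizure rats, against 41.7, 44.1 and 54.1% (lowest, median, highest) in sham rats. Sham rats spanned the seizure rats in the kainic acid model, and the kindling groups overlapped. In the first tile of the run, with 40 rows, kindling seizure rats were at 49.0, 50.02, 49.6 and 49.99%, all above the sham rats at 49.0, 42.3, 47.6 and 46.9%. That difference was 3.24 ± 3.45 points (adjusted p = 0.881, limma).

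A list of 53 genes known as imprinted, mostly from mouse, was set against the intervals between the nearest placed promoters. The list was drawn up with earlier results of these data known, and its order of genes between promoters comes from GRCr8. Of the listed genes, 44 were in the RefSeq table, 29 lay in an interval of at most 1000 kb that held a tile able to be chosen, and 11 of those 29 had at least 1 intermediate tile. Among intermediate tiles in such intervals, 22 of 763 (2.88%) shared the interval with a listed gene, against 368 of 46041 other tiles (0.799%). For tiles with at least 40 rows the shares were 7 of 23 (30.4%) and 64 of 8694 (0.736%), and for tiles with 8 to 39 rows 15 of 740 (2.03%) and 304 of 37347 (0.814%). Tiles of a locus are not independent, and the Gnas interval alone held 9 of the 22 intermediate tiles and 4 of the 7 with at least 40 rows. Without it the shares were 13 of 754 (1.72%) against 348 of 46021 (0.756%), and for tiles with at least 40 rows 3 of 19 (15.8%) against 61 of 8691 (0.702%).

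Among the listed loci after Gnas, Plagl1, a growth-regulating zinc finger factor, had an intermediate tile over its placed promoter at chr1:7219001-7220000, with 63 rows. Its levels were 45.5, 42.5, 42.1 and 46.3% in kindling seizure rats and 47.9, 45.7, 47.2 and 46.6% in kindling sham rats. In the kainic acid model they were 40.9, 46.6 and 47.5% in seizure rats, against 40.5, 45.0 and 46.3% (lowest, median, highest) in sham rats. The groups overlapped in both models, and limma gave -2.77 ± 3.73 points for kindling and 0.719 ± 3.64 points in the kainic acid model.

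Between B3gnt2 and Cct4 lies Commd1, whose intron in mouse contains the imprinted retrogene Zrsr1. The tile chr14:107748001-107749000, with 68 rows, had 52.6, 46.0, 48.2 and 49.0% in kindling seizure rats and 47.2, 47.3, 47.6 and 46.2% in kindling sham rats. Its kainic acid values were 47.4, 50.3 and 46.1% in seizure rats, against 44.6, 48.0 and 51.3% (lowest, median, highest) in sham rats, so the groups of each model overlapped. A further tile, chr14:107751001-107752000 with 25 rows, averaged 47.9%.

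Nnat, which encodes the neuronal proteolipid neuronatin and sits in an intron of Blcap, lies between Manbal and Ctnnbl1. There chr3:154044001-154045000, with 68 rows, was the lowest of the dense intermediate tiles. It had 42.2, 39.2, 36.6 and 38.3% in kindling seizure rats and 36.0, 38.1, 36.2 and 38.9% in kindling sham rats. The kainic acid values were 37.1, 39.1 and 43.8% in seizure rats, against 36.5, 40.1 and 42.9% (lowest, median, highest) in sham rats. No group stood apart.

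Sparser tiles lay at further listed loci. Nap1l5, a retrogene inside Herc3, shares its interval with chr4:89150001-89151000, which had 32 rows and a mean of 49.99%. The interval of Mcts2, a retrogene inside H13 in mouse, held chr3:148167001-148168000 with 24 rows and a mean of 46.4%. The potassium channel gene Kcnq1, whose intron carries an imprinting control region in mouse, and the growth inhibitor gene Cdkn1c share an interval with 3 intermediate tiles, of which 2 were adjacent (chr1:216542001-216544000, 56.3 and 41.9%). The interval between Tcp1 and Igf2r, the receptor that clears IGF2, held 2 tiles with 8 and 10 rows, at 44.1 and 52.2%. They lie 77845 and 21845 bp before the placed Igf2r promoter, which is on the plus strand. Between Dlk1 and Dio3, 1050 kb apart, lay 3 intermediate tiles, among them chr6:133658001-133659000 with 34 rows at 51.5%. Over the 21 tested tiles that share an interval with a listed gene, the kindling differences ran between -2.77 and 3.89 points (12 positive, 9 negative) and the kainic acid differences between -0.932 and 3.68 points (17 positive, 4 negative). Seizure and sham rats did not overlap in 1 of these tiles, the Gnas tile counted above, in the kainic acid model (1.49% of all tested tiles) and in 0 in kindling (2.44% of all tested tiles).

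The other 18 of these 29 listed genes had 0 intermediate tiles in their intervals of up to 1000 kb. Dlk1 and Ddc are among them. The intermediate tiles given above between Dlk1 and Dio3 and between Fignl1 and Vstm2a lie in wider intervals. Such an interval does not tie its tiles to a single gene. The 18 also include H19, an untranslated RNA (11 tiles able to be chosen), and Igf2, the growth factor gene with which it shares a control region (19 tiles). Mest had 0 of 20 tiles, Rasgrf1 0 of 10, Slc38a4 0 of 39 and Zdbf2 0 of 3. The tile over the divergent promoters of Peg10 and Sgce did not meet the rule: the placed Peg10 window averaged 30.6%, and its rats ran between 15.1 and 55.8%. The placed promoters of Igf2 (12.3%), Ndn (12.3%) and Dlk1 (5.26%) were low.

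Of the 27 intermediate tiles with at least 40 rows, 18 had no listed gene found in their interval. The densest of these were chr11:68309001-68310000 between Dtx3l and Sec22a and chr1:71383001-71384000 between Zfp667 and Epn1, both with 95 rows. Only 23 of the 27 had an interval of at most 1000 kb. The Zfp667 to Epn1 interval, at 1021 kb, was not among those, so not all of the 18 were screened within that limit. On chromosome 11 the kindling seizure rats were at 58.5, 59.8, 56.7 and 50.3% and the kindling sham rats at 57.8, 51.6, 53.9 and 49.6%. The kainic acid values there were 59.3, 51.4 and 56.2% in seizure rats, against 50.6, 53.0 and 56.7% (lowest, median, highest) in sham rats, and the groups of both models overlapped. The chromosome 1 tile averaged 56.6%, with all 18 rats between 52.5 and 63.2%.

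Some dense tiles varied far more between rats than the Gnas tiles did. At chr17:44420001-44421000, between the histone genes H1f2 and Hist1h4b, kindling seizure rats were at 64.6, 64.6, 46.1 and 61.1% and kindling sham rats at 59.4, 46.3, 48.8 and 52.7%. Kainic acid seizure rats were at 47.4, 48.4 and 47.3%, against 46.1, 53.8 and 60.9% (lowest, median, highest) in sham rats. In kindling 3 of the 4 seizure rats lay above every sham rat and rat 3 below every sham rat, and in the kainic acid model the seizure rats lay below 5 of the 7 sham rats. The groups overlapped and neither difference was called (7.30 ± 8.30 points, adjusted p = 0.890; -5.54 ± 8.10 points, adjusted p = 1.0; limma). Without kindling seizure rat 3 the kindling difference was 11.6 points. In the clustered protocadherin region, whose genes encode cell adhesion proteins of neurons, chr18:30871001-30872000 before Pcdhga8 had 44 rows and a mean of 53.8%. The fitted difference was -1.01 ± 4.48 points for kindling and 0.345 ± 4.37 points in the kainic acid model.

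**Figure D3:**
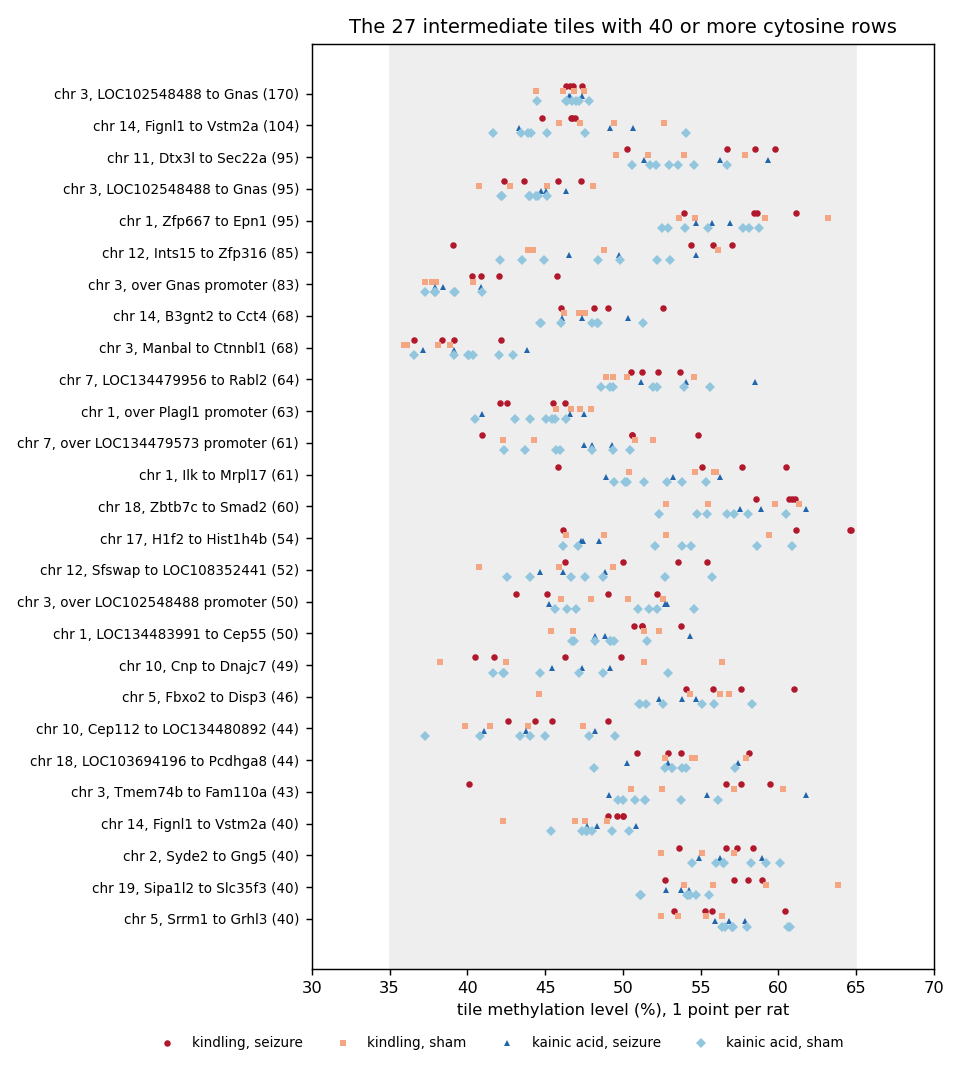
Methylation level (percent) of each rat at the 27 intermediate tiles with at least 40 cytosine rows, named by the overlapping or flanking placed promoters with the row count in parentheses; the grey band is 35 to 65%. The points of the 170-row tile lie within 3.42 points of each other, while the tile between H1f2 and Hist1h4b spreads over 18.5 points.

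Over all 1157 tiles, the range of the 18 rats had a median of 13.98 points and ran between 3.42 and 28.1 points. The SD within groups had a median of 3.99 points in tiles with 8 to 11 rows, 2.74 points in tiles with 40 to 79 rows and 3.02 points in the 7 tiles with 80 rows or more. It was 3.83 points in all intermediate tiles, and 2.87 points in the 6603 other tiles whose 18-rat mean lay in the same band. Of the 5 tiles with the smallest range, 4 had at least 21 rows. Besides the 170-row Gnas tile these were chr12:51513001-51514000 (54.7%), chr5:171800001-171801000 (61.1%) and chr20:6762001-6763000 (39.3%), and the tile with 10 rows was chr17:11461001-11462000 (51.0%). Of the 5 with the largest range, 4 had 8 rows and chr13:53697001-53698000 had 20.

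The strands of a CpG gave similar levels. At 7300 CpGs of the intermediate tiles measured on both strands, the 18-rat means differed by a median of 2.39 points, and 94.3% were within 10 points. In the other tiles with a mean in the band the median was 1.79 points over 43834 CpGs. Within a single rat the SD of the strand difference was 9.69 to 13.6 points in the intermediate tiles and 8.17 to 11.1 points in those other tiles. Of the 15908 rows in the intermediate tiles, 84.3% had an 18-rat mean between 30 and 70%, and the range of a row over the 18 rats had a median of 26.3 points. Rows with a rat at 10% or below and another at 90% or above numbered 14 in 8 tiles (0.088% of rows), against 162 rows (0.16%) in those other tiles. The rule bounds the levels, so the lower share is not a result about the intermediate tiles. At the 6 such CpGs read on both strands each strand showed it, against 46 of 79 (58.2%) in those other tiles.

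Averaged over all 1157 tiles, each rat came close to the middle of the scale. The means were 51.0, 49.6, 50.8 and 52.2% in kindling seizure rats and 49.6, 49.0, 52.1 and 51.8% in kindling sham rats. They were 50.5, 51.9 and 51.9% in kainic acid seizure rats, against 50.1, 51.0 and 51.4% (lowest, median, highest) in kainic acid sham rats. The groups overlapped in both models, at 50.9% ± 1.06 for the 4 kindling seizure rats against 50.6% ± 1.55 for the 4 kindling sham rats (mean ± SD), and at 51.4% ± 0.823 for the 3 kainic acid seizure rats against 50.9% ± 0.475 for the 7 kainic acid sham rats. Over the 27 dense tiles the means were, with SDs over the same rats, 51.0% ± 0.923 in kindling seizure and 49.7% ± 1.08 in kindling sham rats, and 50.2% ± 0.434 in kainic acid seizure and 49.4% ± 0.692 in kainic acid sham rats. In these dense tiles the kindling groups overlapped only through kindling seizure rat 4, and the kainic acid groups only through kainic acid sham rat 6. Over all 1157 tiles the kainic acid groups overlapped only through kainic acid seizure rat 1. Kindling seizure rat 4 stood apart in spread: it was the highest of the 18 rats in 187 tiles and the lowest in 90, and the SD of its deviations from the tile means was 5.18 points, against 3.17 to 4.51 points in the other rats. In that rat 20.7% of all cytosines of the table were at 0, and kindling sham rat 4 had the highest share at 25.4%. The part of these shares in the results was not tested.

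**Figure D4:**
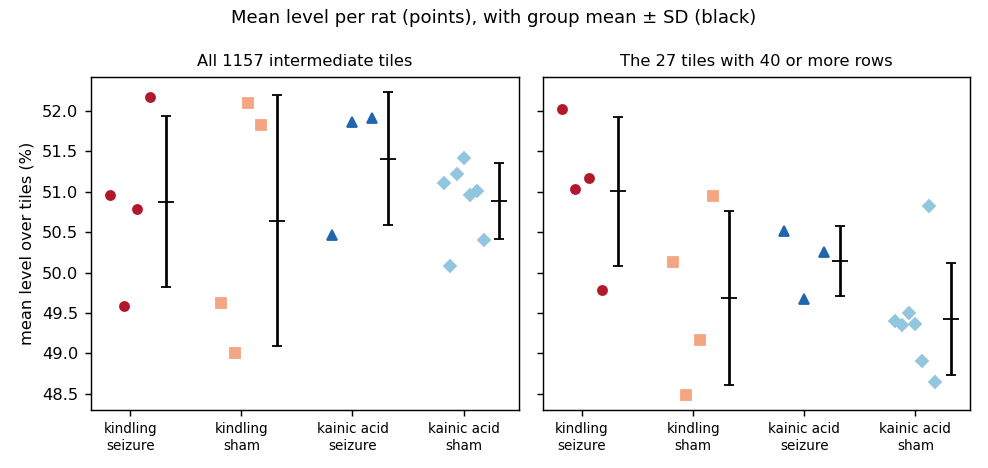
Mean level (percent) of each rat over all 1157 intermediate tiles (left) and over the 27 with at least 40 rows (right), by group, with the group mean and SD in black. All rats lie between 48.5 and 52.2%, and the groups of each model overlap. On the left the kainic acid groups overlap only through kainic acid seizure rat 1. On the right the kindling groups overlap only through kindling seizure rat 4, and the kainic acid groups only through kainic acid sham rat 6.

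To see whether the level held in rats that had no part in the choice, the same rule was applied to the 7 kainic acid sham rats alone, which gave 1604 tiles. In kindling seizure rats 94.6, 93.3, 93.8 and 93.6% of these tiles had a mean between 35 and 65%, and in kindling sham rats 94.3, 95.5, 96.1 and 94.95%. The kindling groups overlapped only through kindling sham rat 1. In kainic acid seizure rats the shares were 95.6, 97.8 and 98.2%. The mean level over the 1604 tiles was 51.3% ± 0.9004 (SD) for the kindling seizure group of 4, 50.8% ± 1.38 for the kindling sham group of 4 and 51.7% ± 0.628 for the kainic acid seizure group of 3.

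The design asks what seizures change in each model. Differences were seizure minus sham, tested with limma over all 84585 tiles with at least 3 rows and a range of 5 points or more, and adjusted over all of them. This left 1155 of the 1157 intermediate tiles. In kindling, 0 of 1155 were called at an adjusted p under 0.05, where 0 of all 84585 tiles were called (0%). At an unadjusted p under 0.05 there were 52 (4.50%), against 5.71% of all tested tiles. Without kindling seizure rat 4 these were 121 of 1155, against 7914 of all 84585 tested tiles. Without kindling sham rat 1 they were 85 of 1155, against 6367 of 84585. The share lay above the background without kindling seizure rat 4 and below it without kindling sham rat 1. The rule keeps every rat in the band, so a lower share than the background is not a result about these tiles. The median difference was 0.260 points, against 0.299 points over all tested tiles, and turned negative when kindling seizure rat 4 (-0.322), kindling sham rat 1 (-0.0327) or kindling sham rat 2 (-0.372) was left out. Leaving out kindling seizure rat 2 gave 0.647 points, and leaving out sham rat 3 or sham rat 4 of the same model gave 0.741 and 0.714 points. Differences ran between -10.3 and 11.3 points, and 91.5% of tiles differed by under 5 points. Seizure and sham rats did not overlap in 13 tiles (1.13%), against 2.44% of all tested tiles.

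The kindling tile of smallest p was chr17:10161001-10162000, between Zfp346 and the netrin receptor gene Unc5a, with 16 rows. It had 50.2, 52.8, 51.9 and 51.3% in kindling seizure rats, against 44.9, 44.2, 41.5 and 42.7% in kindling sham rats. All 4 seizure rats were above all 4 sham rats, and the difference was 8.24 ± 4.403 points (adjusted p = 0.682, limma). The same tile had a kainic acid difference of 1.39 ± 4.30 points. At chr12:44037001-44038000, between Spring1 and Tesc, kindling seizure rats were at 56.2, 55.9, 53.6 and 59.2%, against 47.5, 41.1, 43.8 and 47.2% in kindling sham rats. The groups did not overlap, the difference was 11.3 ± 6.30 points (adjusted p = 0.682), and in the kainic acid model it was -5.92 ± 6.15 points.

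Of the other kindling tiles of smallest p, 3 had positive differences: 10.4 points at chr2:124806001-124807000, 8.18 points at chr12:30949001-30950000 and 5.85 points at chr8:45831001-45832000. Those with negative differences were chr12:23686001-23687000, chr7:26863001-26864000, chr4:56203001-56204000, chr5:119803001-119804000 and chr7:25091001-25092000, with differences of -10.3, -8.81, -8.66, -8.54 and -7.80 points. The -8.54 of chromosome 5 became -5.46 points without kindling sham rat 3, and in the other 9 of the 10 tiles no rat left out moved the kindling difference by over 1.5 times. The adjusted p of these 8 tiles lay between 0.768 and 0.798, so none was called.

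In the kainic acid model, 0 of 1155 intermediate tiles were called, where 0 of all 84585 tiles were called (0%), and 34 (2.94%) had an unadjusted p under 0.05, against 3.54% of all tested tiles. The median difference was 0.507 points, against 0.311 points over all tested tiles. It was 0.942 points without kainic acid seizure rat 1, 0.226 without rat 2 and 0.160 without rat 3. Differences ran between -8.54 and 9.08 points, and 93.9% of tiles differed by under 5 points. Seizure and sham rats did not overlap in 14 tiles (1.21%), against 1.49% of all tested tiles. For the mean of both models 0 of 1155 were called (0% of all tiles), and 42 (3.64%) had an unadjusted p under 0.05, against 4.56% of all tested tiles. The count for the mean of both was 105 of 1155 without kindling seizure rat 4, against 6832 of all 84585 tested tiles. It was 74 of 1155 without kindling sham rat 1, against 5184 of 84585, so the counts over all tested tiles rose too.

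Of the 10 kainic acid tiles of smallest p, 3 had groups that did not overlap, against 1.49% of all tested tiles; since they were picked by p, nothing is read from that count. At chr13:52452001-52453000, between Ipo9 and the neuron navigator gene Nav1, kainic acid seizure rats were at 64.9, 58.3 and 57.2%, all above the sham rats at 51.4, 52.4 and 54.6% (lowest, median, highest). The difference was 7.27 ± 4.12 points (adjusted p = 1.0, limma). The kindling rats of the same tile had 57.4, 53.1, 55.4 and 56.5% in seizure rats, against 62.4, 58.5, 64.2 and 56.5% in sham rats, a difference of -4.77 ± 4.22 points. The difference between the models was called in 0 of 1155 intermediate tiles (0% of all tested tiles, smallest adjusted p of an intermediate tile 0.775), and 39 had an unadjusted p under 0.05 (3.38%), against 4.75% of all tested tiles. Without kindling seizure rat 4 that count was 65 of 1155, against 4921 of all 84585 tested tiles. At chr2:219590001-219591000, between Rtca and Sass6, the 22-row tile had 55.7, 52.7 and 54.5% in kainic acid seizure rats, above the sham rats at 40.9, 45.9 and 51.1%, and its difference was 8.43 ± 5.93 points. Its kindling difference was 4.11 ± 6.08 points. At chr13:83346001-83347000, between Nme7 and Slc19a2, the seizure rats lay below the sham rats, with 44.2, 45.8 and 42.3% in kainic acid seizure rats against 47.8, 50.9 and 56.8% (lowest, median, highest) in sham rats. Its difference was -7.96 points. At chr13:96868001-96869000, where the groups overlapped, the difference was -8.18 points, and -5.37 points with a single CpG left out.

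**Figure D5:**
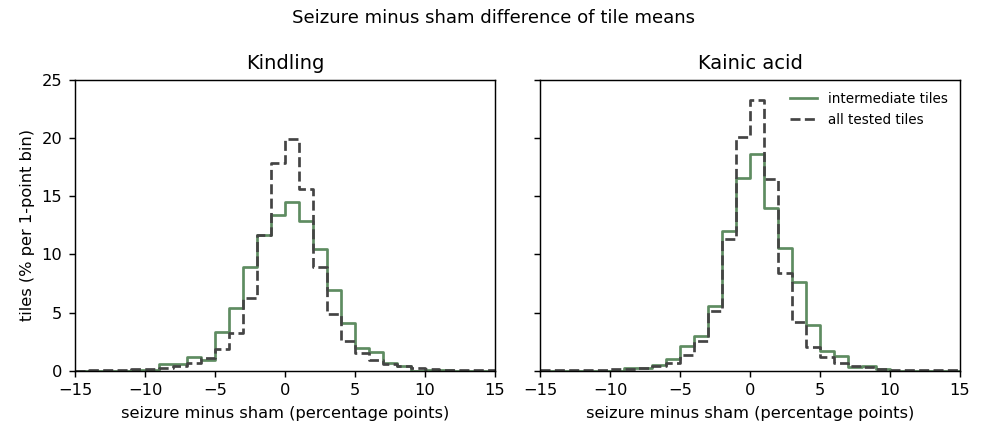
Distribution of the seizure minus sham difference of tile means (percentage points, 1-point bins) for the intermediate tiles and for all tested tiles, in kindling (left) and kainic acid (right). Both distributions centre near 0, with medians of 0.260 and 0.507 points for the intermediate tiles.

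The precision of these differences bounds what could be seen. The 95% interval of a tile's difference had a median width of ± 5.60 points in kindling and ± 5.47 points in the kainic acid model for the intermediate tiles, against ± 4.03 and ± 3.94 points for all tested tiles. Tiles with known changes were also simulated. They were drawn from all tested tiles with a mean between 30 and 70%, so the rates are not those of the intermediate tiles alone. The test found 30% of the 10-point changes in kindling and 26% in the kainic acid model, 62 and 64% of the 15-point changes, and 70 and 72% of the 20-point changes. Of 50 simulated 5-point changes it found 1 in kindling and 0 in the kainic acid model, and it also called 8 and 5 tiles that had not been changed. In that wider set, differences of 5 points were thus mostly missed at this number of rats, and a tile without a call is not shown to be unchanged. Over the 26 tested tiles with at least 40 rows, differences ran between -2.77 and 7.30 points in kindling and between -5.54 and 3.56 points in the kainic acid model. In each model 19 of these were positive and 7 negative. Of all tested tiles, 56.1% in kindling and 57.5% in the kainic acid model had a positive difference. Tiles share rats, so nothing is read from these counts.

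A single CpG carried the most negative kindling difference. The tile chr12:23686001-23687000, between Polr2j and Ywhag, had 53.5, 49.2, 51.4 and 41.9% in kindling seizure rats, against 64.4, 59.7, 51.9 and 61.3% in kindling sham rats. At its cytosine chr12:23686292 on the plus strand the levels were 50%, 40.7, 57.9 and 41.4% in kindling seizure rats, against 100% in all 4 kindling sham rats. The kainic acid seizure rats were at 38.3, 0.0 and 48.9%, against 50%, 65.6 and 98.1% (lowest, median, highest) in the sham rats. In both models the seizure rats lay below the sham rats there, and also on the opposite strand. Single rats lay near 0, near the middle and near 100%, and in outbred rats without read data a sequence variant at this CpG and its methylation cannot be told apart. Without this CpG the tile's difference was -0.798 points in kindling, in place of -10.3, and 3.91 points in the kainic acid model, in place of -6.46. With kainic acid seizure rat 2 left out the kainic acid difference of the tile was -3.38 points. In the other 9 kindling tiles of smallest p, leaving out any single CpG left a difference of the same sign that was within 1.5 times of the full one.

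At single cytosines, 15045 of the 15908 rows in the intermediate tiles were tested among 800753 in the whole table. In kindling 0 were called (0% of all), and 838 had an unadjusted p under 0.05 (5.57%), against 5.72% of all tested cytosines. In the kainic acid model 0 were called, where 5 of all tested cytosines were (0.000624%). With the replicate number as a block 1 was called there, chr12:23686292 (adjusted p = 0.0277, limma), where 34 of all tested cytosines were (0.00425%). Without the block 485 had an unadjusted p under 0.05 (3.22%), against 3.82% of all tested cytosines.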

How the data were processed

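Reduced representation bisulfite libraries of 18 rats were read as a table of methylation fractions (beta values, 0 to 1), deposited by the authors with a column per rat and a row per strand of each CpG. Per the submitters' processing notes, the tools included Bismark, Bowtie2, methylKit, Trim Galore and FastQC on the build rn6, without versions or roles; the sources used here give no coverage minimum, and depth is unknown. Library names in the labels tied each column to its rat, and 0 columns went unused. The labels give separate animals.

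Fractions were multiplied to percent and averaged per 1000 bp tile over 2330883 rows. Tests used limma 3.58.1 (R 4.3.3, with version 1.17.8 of data.table and 21.0.0 of arrow) on the fraction scale with a variance trend, all 4 groups in a single fit (14 residual degrees of freedom), and Benjamini-Hochberg adjustment over all tiles (at least 3 rows, range of 5 points or more) or all cytosines (range of 10 points or more). The fit was tested on simulated data. Other steps used Python 3.11.15, numpy 2.4.6, pandas 2.3.3 and matplotlib 3.10.9.

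A RefSeq promoter was placed where at least 5 consecutive CpG gaps and at least 90% of the measured CpGs matched, with 6 CpGs or more, at exactly 1 place; 142 of 7482 such places (1.90%) were on another chromosome than in GRCr8 and were dropped. This step was chosen after the files were seen, in place of an rn6 annotation. The members and gene lists were chosen with earlier results of these data known. Tiles named are the 5 longest runs, the 5 tiles with most rows, the 5 with smallest and largest range, and, as none was called, the 5 of smallest p in each direction per contrast; tiles at listed genes or with 40 rows or more, and the chromosome 12 CpG, were added after values were seen. Alternatives varied the row minimum, range filter, scale, trend, weights, fit, chromosomes, replicate block and rats.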

Additional observations from a re-analysis of the deposited data

Results flagged for a closer look

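In the groups of 4 or 7 rats, the highest or lowest rat was compared with the others by Dixon's test, 254 times. A rat stood apart in 17, where 1 in 20 gives 12.7. Many of the 81 tiles were picked by their range or p, and tiles share rats, so 12.7 is no measure of chance here. The 3 kainic acid seizure rats were too few for the test. In kindling seizure rats, rat 4 stood below the other 3 at 5 tiles: chr12:13328001 with 39.1%, chr18:72460001 with 58.5%, chr2:124806001 with 41.0%, chr3:147477001 with 40.1% and chr5:142247001 with 44.9%. Rat 2 was low at the chromosome 14 run (chr14:92117001, 44.8%), and rat 3 was high in its last tile (chr14:92118001, 50.5%) and at chr17:11461001 (54.2%). Rat 1 was high at chr20:22630001 (49.4%).

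In kindling sham rats, rat 3 stood apart at 4 tiles. It was low at chr20:22630001 with 38.5%, and high at chr5:119803001 with 57.8% and at the Gnas tiles chr3:172386001 with 57.5% and chr3:172388001 with 42.5%. In kainic acid sham rats, rat 6 had the highest mean over the tiles with at least 40 rows (50.8%, the others at 48.6 to 49.5%). Single sham rats also stood apart at the Mcts2 interval (chr3:148167001, rat 5, 42.4%), the Nap1l5 interval (chr4:89150001, rat 4, 52.6%) and beside Dlk1 (chr6:133583001, rat 2, 44.7%).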

How the results depend on the processing

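Under every alternative run, 0 intermediate tiles were called in kindling, in the kainic acid model and for the mean of both, and their smallest adjusted p lay between 0.317 and 1.0. Leaving out each rat in turn gave 1156 to 1205 intermediate tiles and 0 called cytosines. The number of tiles was 1963 with a band of 30 to 70%, 355 with 40 to 60%, 1759 with at least 5 rows, 480 with at least 12 rows, 2042 with a row share of 50%, 452 with 90%, 1131 on a grid shifted by 0.5 kb (844 of them overlapping an original tile) and 1295 with strands averaged (994 shared). The mean level was 51.9% with the wider band, and kindling seizure rats had 96.1% of tiles in the band when all 11 sham rats chose them; the cause was not tested. With array weights, 62 of 1155 intermediate tiles had an unadjusted p under 0.05 in the kainic acid model, against 4535 of all 84585 tested tiles. For the mean of both the count was 77 of 1155, against 5455 of 84585. Tiles up to 5 kb apart joined into 19 runs in place of 13.

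The replicate numbers did not pair the rats (correlations of same-numbered deviations between -0.111 and 0.155). Between kindling rats of different numbers the correlations were larger. They ran from -0.326, for kindling seizure rat 4 with kindling sham rat 1, to 0.249, for kindling seizure rat 4 with kindling sham rat 3. The cause was not tested. With the number as a replicate block, 0 tiles and 0 kindling cytosines were called, and 1 kainic acid cytosine was, chr12:23686292 (adjusted p = 0.0277, limma), where 34 of all tested cytosines were (0.00425%). Depth is unknown, so limits per value could not be given.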
